A study of Arabidopsis thaliana with 39 samples.

Results

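The miR169 family of Arabidopsis thaliana was followed across small RNA sequencing libraries of 13 conditions. Every counted sequence with a name beginning in miR169 was taken, which gave 8 of the 353 distinct mature sequences in the tables: 4 from the 5′ arm of the hairpin and 4 from the 3′ arm. All plants were Col-0 wild type, and each condition had 3 biological replicates, or 39 libraries in all. Rosette leaves of soil-grown plants came from drought at 30% soil water content (D30, 27 days old) and 20% soil water content (D20, 30 days old), each with watered plants of the same age (C30 and C20). Whole seedlings of 15 days came from heat of 37°C for 0.5 h (H0.5) or 6 h (H6) with unheated seedlings (H0), and from liquid medium that for 24 h held NaCl at 250 mM (NaCl+), cadmium at 10 µM (Cd+), copper at 10 µM (Cu+), no copper (Cu-) or no sulphate (S-), all set against the same 3 control libraries (C). Leaves and seedlings hold many cell types, and a mature miRNA marks none of them, so that fewer cells of a type and less RNA per cell cannot be told apart in any result below.

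In plants a miRNA is cut from the stem of a hairpin precursor, and 1 arm, the guide, is loaded into an Argonaute protein, while the opposite arm is mostly degraded. The miR169 guides lie on the 5′ arm and pair with mRNAs of NF-YA, the DNA-binding subunit of the NF-Y factor that recognises the CCAAT box. The family is best known in Arabidopsis from drought, where NF-YA5 acts in guard cells, and from nitrogen and phosphate starvation, and several NF-YA genes are themselves induced by abscisic acid and stress.

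The 4 guides are shown first because the results turn on differences of 1 to 3 bases between them. They are written 5′ to 3′ with the seed, bases 2 to 8, in capitals.
miR169a-5p: cAGCCAAGgatgacttgccga
miR169b-5p,c: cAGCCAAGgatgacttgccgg
miR169d,e,f-5p,g-5p: tGAGCCAAggatgacttgccg
miR169h,i,j,k,l,m,n: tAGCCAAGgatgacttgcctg
The partner of miR169b-5p on the 3′ arm is shown as well, since it was the most counted 3′ sequence.
miR169b-3p: gGCAAGTTgtccttcggctaca

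Of the 4 guides, 3 had the seed AGCCAAG, and miR169d,e,f-5p,g-5p began 1 base further 5′, which gives it the seed GAGCCAA. With positions counted from 1 at the 5′ end of the first-named guide, miR169a-5p and miR169b-5p,c differed by A21G alone. miR169b-5p,c and miR169h,i,j,k,l,m,n differed by C1T and G20T. All 4 guides held the same run of 18 bases, agccaaggatgacttgcc, and the authors kept reads from 17 nt upward and trimmed unmatched reads at both ends, so a shortened read of one guide can be counted for another. Names joined by commas stand for loci with an identical mature sequence and share 1 count.

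By exact match to the RefSeq assembly TAIR10.1, the sequences lay in the 14 annotated MIR169 genes, on chromosomes 1, 3, 4 and 5, and none of the matches overlapped a gene outside the family. miR169a-5p matched MIR169a only (chr3:4359182-4359202, minus strand). miR169b-5p,c matched MIR169b (chr5:8527511-8527531, plus strand) and MIR169c (chr5:15870868-15870888, minus strand), while miR169b-3p matched MIR169b alone (chr5:8527592-8527613, plus strand). miR169d,e,f-5p,g-5p had 4 matches, of which MIR169d and MIR169e lie 1901 bases apart on chromosome 1. miR169h,i,j,k,l,m,n had 7 matches, and 6 of them, MIR169i to MIR169n, stand in a cluster of 6795 bases on the minus strand of chromosome 3 (chr3:9871960-9878754). The 3′ sequences miR169a-3p and miR169f-3p had 1 match each, and miR169g-3p matched both MIR169g and the hairpin of MIR169d.

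The NF-YA transcripts of the same annotation were searched for windows that pair with the guides, with a penalty of 1 for a mismatch and 0.5 for a G:U pair. Of the 10 NF-YA genes, 8 had a window with a penalty of 4 or less, in each case in the 3′ untranslated region, against 54 of 31464 genes with an annotated mRNA (0.172%). NF-YA4 and NF-YA7 had none, with lowest penalties of 7.0 and 5.0. The windows of 4 genes are printed because they show both kinds of pairing described next.
NF-YA1 (chr5:4051058-4051078, minus strand): ccggcaaatcattcttggctt
NF-YA2 (chr3:1676807-1676827, minus strand): caggcaaatcatctttggctc
NF-YA5 (chr1:20217494-20217514, minus strand): acgggaagtcatccttggcta
NF-YA6 (chr3:4644334-4644354, plus strand): aagggaagtcatccttggcta
Counted from the 5′ end of miR169b-5p,c, the windows of NF-YA1, NF-YA2, NF-YA9 and NF-YA10 had a mismatch at position 14, and those of NF-YA3, NF-YA5, NF-YA6 and NF-YA8 at position 17. The lowest penalty for NF-YA1 was that of miR169b-5p,c (2.5, against 3.5 for miR169a-5p). For NF-YA6 it was that of miR169h,i,j,k,l,m,n (2.0), and for NF-YA5 all 4 guides had 3.0. These matches describe sequence only, and no target mRNA was measured in these files.

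The libraries held 1018693 to 5036688 miRNA reads and 9727422 to 10604342 genome-mapped reads. The 3 NaCl+ libraries stood apart, with 1018693 to 1733990 miRNA reads, which was 9.84% to 16.7% of their mapped reads, against 25.6% to 51.6% in the other 36 libraries. Their RNA integrity numbers (8.7 to 8.9) lay within the range of the others (8.0 to 9.3). Levels are given as CPM, the reads of a sequence scaled to a total of 1000000 miRNA reads per library, and salinity results are therefore also given per genome-mapped read. No pair of replicates was closer than sampling noise.

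Over all libraries the guide miR169d,e,f-5p,g-5p took 32.7% of the family's reads (12135 reads), miR169a-5p 23.5% (8712), miR169h,i,j,k,l,m,n 19.6% (7288) and miR169b-5p,c 9.4% (3490). On the 3′ arm miR169b-3p had 4935 reads (13.3%), more than its guide, although the guide count includes a second locus. The other 3′ sequences were rare. miR169f-3p had 458 reads, between 1 and 50 in a library, and miR169a-3p had 99, between 0 and 10. Neither miR169a-3p nor miR169g-3p passed the read filter in any comparison, and miR169f-3p passed it only in the heat comparisons, in D30 and in the comparison of the drought responses. A single read of miR169g-3p was found in the NaCl+ replicate 2 library and none in the other 38, where 0 reads allow up to 3 reads, or 0.596 CPM in the deepest and 2.94 CPM in the shallowest library.

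**Figure D1:**
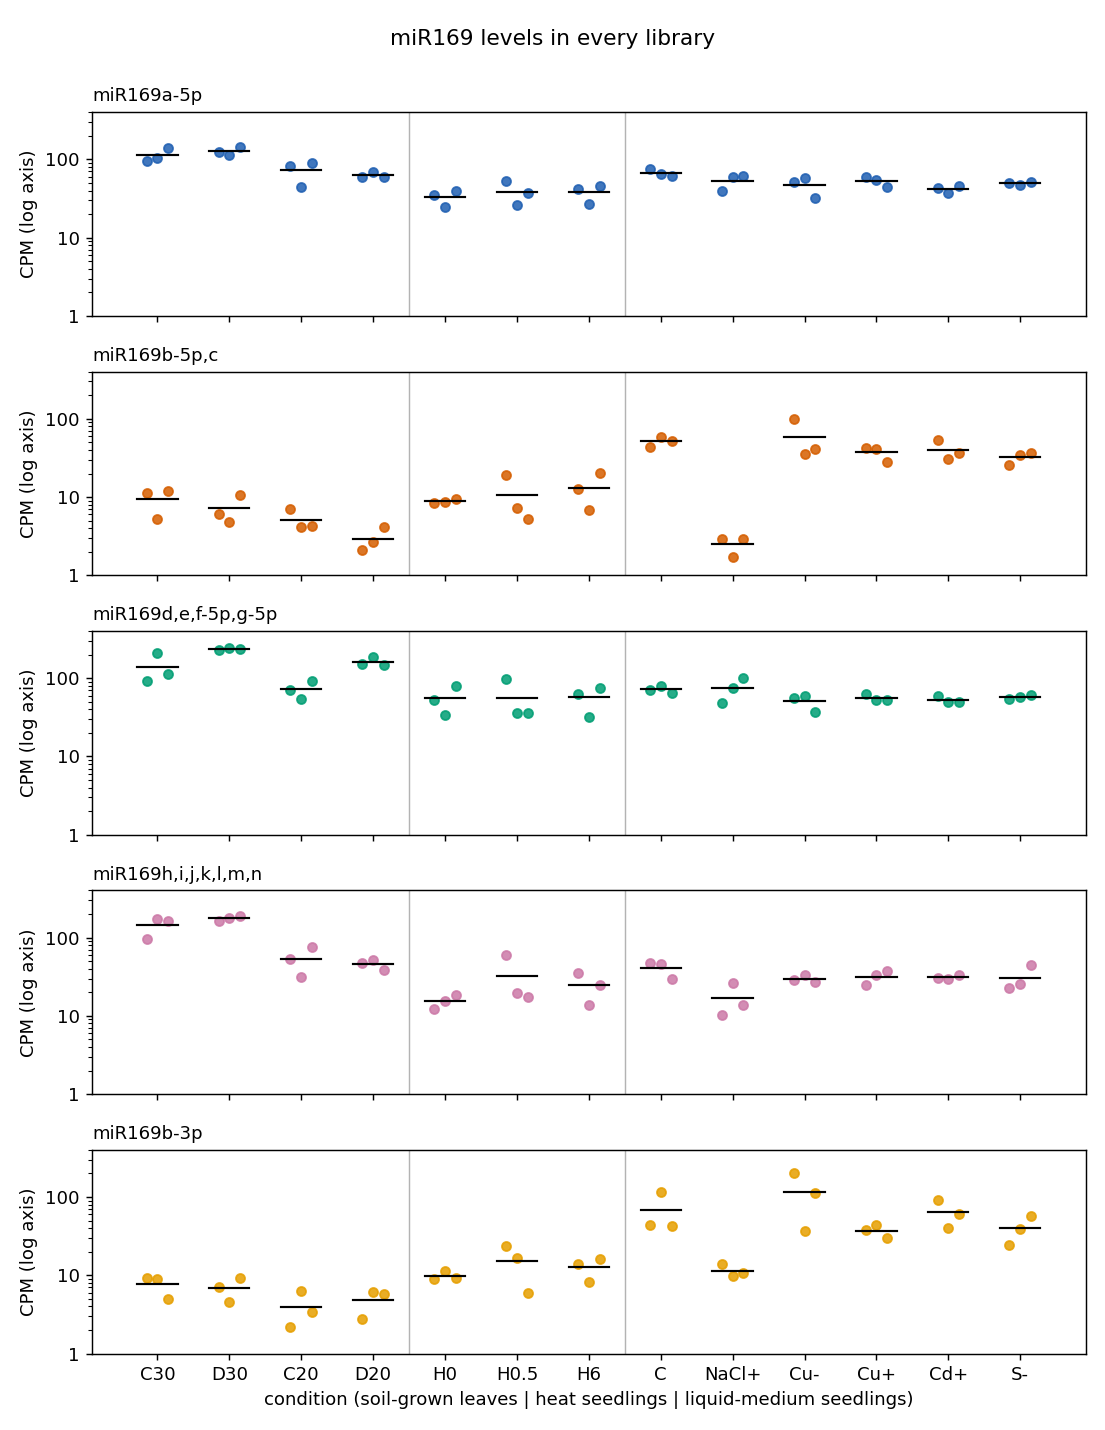
Level of the 5 abundant miR169 sequences in each library, in CPM on a log axis. Points are the 3 replicates of a condition and bars their mean. miR169b-5p,c and miR169b-3p are high in the seedlings kept in liquid medium except NaCl+, whereas the other 3 sequences are highest in D30 leaves.

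Across conditions the abundant members followed 2 patterns. miR169a-5p, miR169d,e,f-5p,g-5p and miR169h,i,j,k,l,m,n had their highest mean in D30 leaves, at 129 ± 14.9, 237 ± 5.94 and 176 ± 13.6 CPM (SD, n = 3). Their lowest means were 33.3 ± 7.52 CPM in H0 for miR169a-5p, 15.5 ± 3.08 CPM in H0 for miR169h,i,j,k,l,m,n and 50.5 ± 11.6 CPM in Cu- for miR169d,e,f-5p,g-5p. miR169b-5p,c and miR169b-3p were arranged otherwise. In leaves miR169b-5p,c ranged from 2.10 to 12.1 CPM (median 5.03, 12 libraries), in the heat series from 5.29 to 20.3 CPM (median 8.74, 9 libraries), and in liquid-medium seedlings other than NaCl+ from 25.8 to 99.0 CPM (median 40.7, 15 libraries). The liquid-medium range overlapped neither of the others. miR169b-3p ranged from 2.20 to 9.27, 5.90 to 23.7 and 24.1 to 203 CPM in the same 3 sets, and there too the last range did not overlap the others, though narrowly. Leaves differ from both seedling sets in organ, age, medium and experiment together. The heat and liquid-medium sets are both seedlings of 15 days, and medium and experiment differ between them. Within each of these contrasts the parts cannot be told apart.

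Neighbours in the order of levels were mostly not separated. For miR169a-5p the 13 condition means ran from H0, H6, H0.5, Cd+, Cu-, S-, Cu+, NaCl+, D20, C and C20 to C30 and D30, and 1 step between neighbours, from C20 (72.7 ± 24.8 CPM) to C30 (113 ± 22.7 CPM), was wider than the larger SD of the pair. The order of miR169h,i,j,k,l,m,n also had 1 such step, again from C20 (53.5 ± 22.6 CPM) to C30 (143 ± 42.1 CPM). For miR169b-5p,c the order was NaCl+, D20, C20, D30, H0, C30, H0.5, H6, S-, Cu+, Cd+, C and Cu-, and the steps above the larger SD were those from D20 (2.95 ± 1.04 CPM) to C20 (5.14 ± 1.58 CPM) and from H6 (13.2 ± 6.77 CPM) to S- (32.4 ± 5.86 CPM). With TMM library sizes in place of totals, NaCl+ ranked 2 from the lowest instead of 1 for this guide. For miR169b-3p the single such step led from H0.5 (15.4 ± 8.95 CPM) to Cu+ (36.9 ± 7.07 CPM). miR169d,e,f-5p,g-5p had 3 such steps, from S- (58.0 ± 2.96 CPM) to C (72.0 ± 7.53 CPM), from NaCl+ (74.5 ± 26.2 CPM) to C30 (138 ± 63.4 CPM) and from D20 (163 ± 22.3 CPM) to D30 (237 ± 5.94 CPM).

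As a description over the 13 condition means of log2(CPM + 1), which share libraries and total depth, Pearson's r was 0.92 between miR169b-5p,c and miR169b-3p, and 0.92 between miR169a-5p and miR169h,i,j,k,l,m,n. miR169d,e,f-5p,g-5p had r of 0.84 and 0.80 with the latter 2. Between either miR169b sequence and these 3 guides r lay between -0.59 and -0.14. Among 119 other sequences with a mean of at least 10 CPM, the patterns most like miR169a-5p were those of miR393b-3p (r = 0.86) and miR171c-5p (0.85). Most like miR169b-5p,c were miR319c.2 and miR158b (both 0.76), and most like miR169b-3p were miR158b (0.89) and miR167c-5p (0.84). miR863-3p (0.87) and miR3440b-3p (0.84) came closest to miR169d,e,f-5p,g-5p, while miR3440b-3p (0.83) and miR447a-3p,b (0.82) came closest to miR169h,i,j,k,l,m,n.

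Among the 9 comparisons of a stress with its control, the largest changes of miR169 members were found under salinity. Of the 5 members that passed the read filter in this comparison, 3 fell and none rose, whereas 33.3% of all 156 sequences tested were called in either direction and 12.8% as lower. miR169b-5p,c was counted 187, 231 and 219 times in the 3 C libraries and 4, 3 and 3 times in the NaCl+ libraries. In CPM this was 43.5, 59.0 and 51.6 against 2.94, 1.73 and 2.94, with no overlap and every NaCl+ library far below every control. The guide fell by 4.49 on the log2 scale (SE 0.39, adjusted p = 4.4e-06, edgeR quasi-likelihood test). From the summed reads, 10 against 637, its level was 21-fold lower per miRNA read (exact 95% counting interval 11.4 to 44.1) and 62.2-fold lower per genome-mapped read (33.6 to 130). It stayed called in all 16 alternatives, with adjusted p from 3.87e-17 to 0.016.

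The opposite arm, miR169b-3p, was counted 191, 458 and 179 times in C and 19, 17 and 11 times in NaCl+, or 44.4, 117 and 42.2 against 13.9, 9.80 and 10.8 CPM. The groups did not overlap, and C replicate 2 was well above the other controls. miR169b-3p fell by 2.65 (log2, SE 0.44, adjusted p = 0.000749 by edgeR), and the call was lost in a one-way F test on CPM, both adjusted over all sequences (0.267) and unadjusted. miR169h,i,j,k,l,m,n, the sequence of the chromosome 3 cluster and MIR169h, was counted 206, 178 and 124 times in C and 14, 46 and 14 times in NaCl+, which was 47.9, 45.5 and 29.2 against 10.3, 26.5 and 13.7 CPM. NaCl+ replicate 2 came close to the lowest control without reaching it. This guide fell by 1.37 (log2, SE 0.38, adjusted p = 0.0149 by edgeR), and the call was lost without NaCl+ replicate 1 (adjusted p = 0.0779), without a read filter (0.0675) and by the adjusted F test (0.156).

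The other guides were not called under salinity. miR169a-5p had 75.8, 65.7 and 61.5 CPM in C and 39.6, 60.0 and 60.9 CPM in NaCl+, so that the highest salt library lay just under the lowest control (log2 change -0.50, SE 0.27, adjusted p = 0.182 by edgeR). miR169d,e,f-5p,g-5p had 70.9, 80.0 and 65.0 against 47.7, 75.5 and 100 CPM, and its groups overlapped widely (-0.14, SE 0.27, adjusted p = 0.725). The sign of this last value turned to 0.041 when total miRNA counts were used for scaling. With genome-mapped reads as the scale the median of all sequences moved by -1.46 and all 5 members were called lower, miR169a-5p by -1.91 and miR169d,e,f-5p,g-5p by -1.55. The share of all sequences called lower on this scale is not given here, so the 5 calls cannot be set against it. A smaller miRNA fraction in these libraries moves with every level given per mapped read, and its part in the result was not tested.

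**Figure D2:**
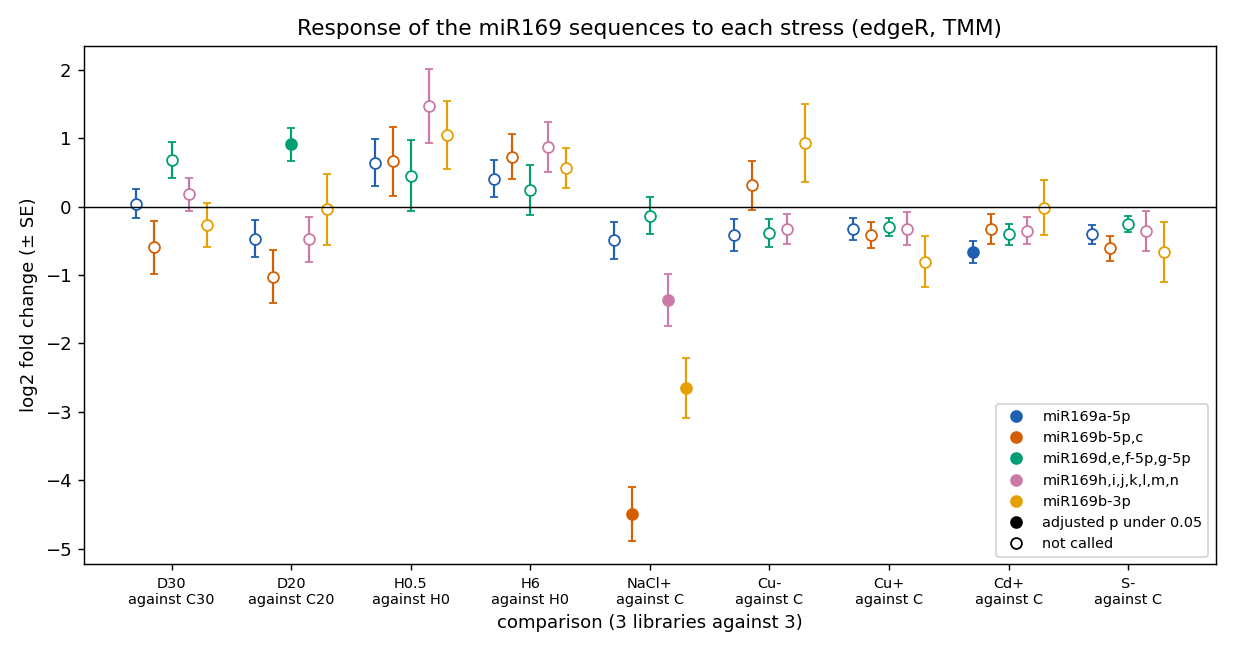
Log2 fold change of the 5 abundant miR169 sequences in each stress against its own control, with the standard error of the edgeR fit as bars (3 libraries against 3). Filled points have an adjusted p under 0.05: miR169b-5p,c, miR169b-3p and miR169h,i,j,k,l,m,n under NaCl+, miR169d,e,f-5p,g-5p in D20 and miR169a-5p under Cd+. The last 5 comparisons share the C libraries.

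Within the family these changes altered the mixture of guides, and a share does not depend on the scaling between libraries. miR169b-5p,c made up 15.3%, 15.9% and 20.4% of miR169 reads in C and 2.48%, 0.968% and 1.53% in NaCl+. miR169d,e,f-5p,g-5p made up 24.9%, 21.5% and 25.7% in C and 40.4%, 42.3% and 52.0% in NaCl+. Neither pair of groups overlapped. The shares of miR169a-5p (22.9% to 32.9%) and miR169b-3p (21.2% to 7.63%) did not overlap either, and over all comparisons this held for 10 of 55 shares. With 3 libraries against 3 the smallest p of a two-sided exact permutation test is 0.1, which all 4 reached, and no share passed adjustment over the 55 share comparisons (0.55). Shares of a whole are tied, since a fall of one raises the others.

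The arms of the miR169b hairpin were also counted in different proportion. The ratio of miR169b-3p to miR169b-5p,c reads was 3.67 to 5.67 in the NaCl+ libraries (median 4.75), and 0.817 to 1.98 in C (median 1.02). No library outside NaCl+ exceeded 2.72, the highest of the other 36, which was a Cu- library. The mean log2 ratio differed by 1.97 between NaCl+ and C (exact permutation p = 0.1, the smallest possible, and 0.55 after adjustment over 11 comparisons). Each NaCl+ ratio rests on 3 or 4 guide reads, and the guide count sums MIR169b and MIR169c, whose separate parts cannot be told apart.

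**Figure D3:**
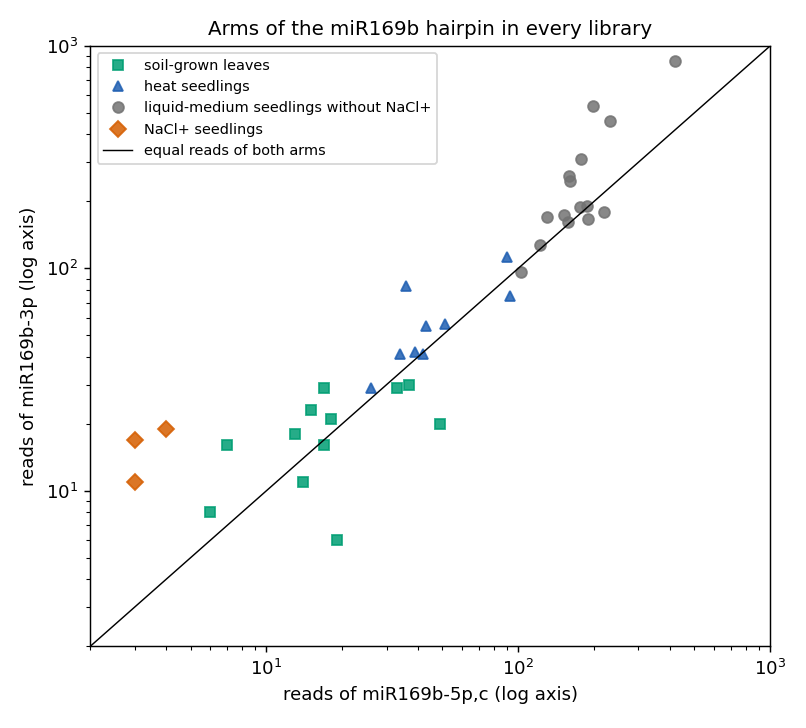
Reads of miR169b-3p against reads of miR169b-5p,c in each of the 39 libraries, both on log axes, with the line of equal reads. The 3 NaCl+ libraries lie above the line, with 11 to 19 reads of the 3′ arm and 3 or 4 of the 5′ arm.

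In drought the called member was another guide. In leaves at 20% soil water miR169d,e,f-5p,g-5p was counted 438, 499 and 468 times against 195, 195 and 302 times in C20. Its level was 153, 189 and 148 CPM in D20 against 71.5, 53.8 and 93.3 CPM in C20, and the groups did not overlap. It rose by 0.91 (log2, SE 0.24, adjusted p = 0.0317, edgeR quasi-likelihood test) and was the single called member of 5 tested, while 19.8% of all 167 sequences were called and 8.98% as higher. The call was lost without C20 replicate 2 (adjusted p = 0.0766) and without D20 replicate 1 (0.0577), replicate 2 (0.122) or replicate 3 (0.0757). It was also lost with the adjusted F test (0.111) and in an edgeR fit with replicate number as a block (adjusted p = 0.0729). The change stayed between 0.85 and 1.28 in all 16 alternatives.

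The other members of the D20 leaves had values below or near those of C20. miR169b-5p,c was at 2.10, 2.65 and 4.11 CPM against 6.97, 4.14 and 4.32 CPM (log2 change -1.03, SE 0.39, adjusted p = 0.113), from 6 to 19 reads per library. The highest D20 library lay just under the lowest control. miR169a-5p (-0.47, SE 0.27, adjusted p = 0.305) and miR169h,i,j,k,l,m,n (log2 change -0.48, SE 0.32, adjusted p = 0.37) overlapped with their controls. As a share of miR169 reads, miR169d,e,f-5p,g-5p went from 32.5%, 37.8% and 34.6% in C20 to 57.6%, 58.9% and 57.6% in D20. miR169a-5p went from 34.2% ± 3.26 to 22.2% ± 0.71 (SD, n = 3) and miR169h,i,j,k,l,m,n from 24.8% ± 3.24 to 16.2% ± 1.52. These 3 shares and that of miR169b-5p,c (2.56% to 1.07%) did not overlap between the groups (exact permutation p = 0.1, adjusted 0.55), among the 10 of 55 shares of which this was so.

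At 30% soil water none of 6 members tested was called by edgeR (0.602% of all 166 sequences were). At an unadjusted p under 0.05 there was 1 member, which was higher, and DESeq2 called 0. Of all 166 sequences 14 were higher and 11 lower at that unadjusted limit. The share of all sequences called by DESeq2 is not given, here or in the comparisons below. miR169d,e,f-5p,g-5p was at 231, 242 and 239 CPM in D30 and at 91.4, 210 and 113 CPM in C30. All D30 libraries were above all controls, and C30 replicate 2 was nearly as high as they were. The log2 change was 0.69 (SE 0.26, adjusted p = 0.239), and without C30 replicate 2 it was 1.03 with an adjusted p of 0.028. The difference between the D20 and D30 responses was not called for any of 6 members (DESeq2 0, 3.39% of 177 sequences called). Unadjusted there were 0 members, while of all 177 sequences 16 were higher and 19 lower. For miR169d,e,f-5p,g-5p the difference was 0.32 (SE 0.39). miR169f-3p, the 3′ partner from MIR169f, had 8.02, 10.8 and 4.95 CPM in C30 and 11.2, 8.75 and 16.0 CPM in D30 (0.48, SE 0.31, adjusted p = 0.48), and no more than 1.93 CPM in any C20 or D20 library.

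**Figure D4:**
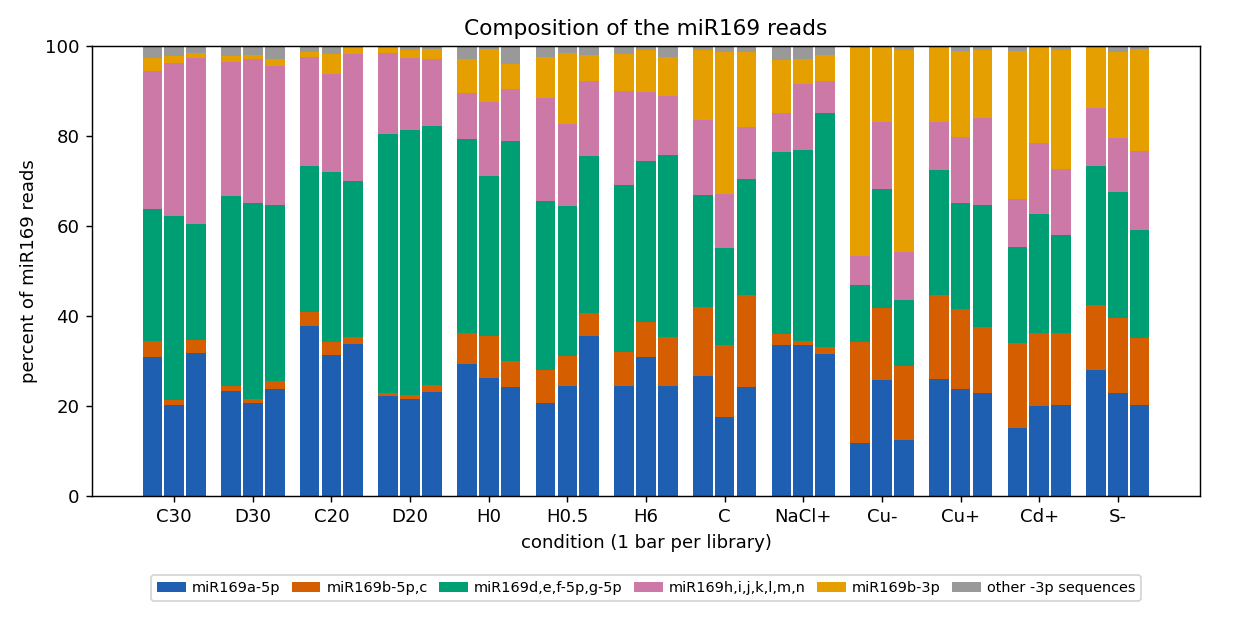
Share of the miR169 reads of each library taken by each sequence, in percent, with 1 bar per library and 3 per condition. In D20 miR169d,e,f-5p,g-5p takes 57.6% to 58.9%, and under NaCl+ miR169b-5p,c takes 0.968% to 2.48%.

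The responses to salt and to severe drought were compared directly, as both are known as stresses of water deficit. The change under NaCl+ minus the change in D20 was -3.64 for miR169b-5p,c (log2, SE 0.54, adjusted p = 0.000108) and -2.70 for miR169b-3p (SE 0.69, adjusted p = 0.016), both called by the edgeR interaction test in which 10.2% of 177 sequences were called and 5.08% as lower. The call of miR169b-3p was lost without D20 replicate 2 (adjusted p = 0.0555). In leaves miR169b-3p had only 6, 23 and 11 reads in C20 and 8, 16 and 18 in D20. Its change in D20 was thus measured with little precision (log2 change -0.04, SE 0.52). For miR169d,e,f-5p,g-5p the difference was -1.12 (SE 0.39, adjusted p = 0.0859) and was called by DESeq2 (adjusted p = 0.0305). Organ, age and growth system differ between the 2 stresses and cannot be told apart from the stress.

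Heat was not followed by a called change. After 0.5 h none of 6 members was called by edgeR (1.23% of 163 sequences were) and 0 by DESeq2. At an unadjusted p under 0.05 there was 1 member, which was higher, while of all 163 sequences 15 were higher and 5 lower. miR169h,i,j,k,l,m,n stood at 59.8, 19.7 and 17.3 CPM against 12.4, 15.6 and 18.6 CPM in H0. H0.5 replicate 1 was far above all others, and H0.5 replicate 3 lay within the control range. The log2 change was 1.46 (SE 0.54, adjusted p = 0.304, from 0.0465 in a joint fit of all libraries to 0.719), and 0.63 without H0.5 replicate 1. That library was also the highest of the H0.5 libraries for the other 4 abundant members, with 19.0 CPM of miR169b-5p,c against 7.24 and 5.29 CPM. After 6 h again none of 6 was called (6.79% of 162 sequences were, DESeq2 0 members). Unadjusted, 1 member was higher, while of all 162 sequences 6 were higher and 13 lower. The largest value was 0.87 for miR169h,i,j,k,l,m,n (SE 0.37, adjusted p = 0.398), at 35.7, 13.7 and 24.6 CPM. Between 6 h and 0.5 h no member was called (3.11% of 161 sequences, DESeq2 0 members). Unadjusted there were 0 members, while of all 161 sequences 1 was higher and 17 lower.

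Under cadmium miR169a-5p, the guide of the single locus MIR169a, fell by 0.66 on the log2 scale (SE 0.16, adjusted p = 0.0309 by edgeR). Its level was 42.7, 37.6 and 45.9 CPM in Cd+ and 75.8, 65.7 and 61.5 CPM in C, without overlap. It was the single called member of 5, against 11.2% of 160 sequences called in either direction and 5% as lower. The call was lost without C replicate 1 (adjusted p = 0.168), C replicate 3 (0.0674), or Cd+ replicate 1 (0.0933), 2 (0.108) or 3 (0.101). It was also lost in a joint fit of all libraries (0.197), with genome-mapped scaling (0.0517) and by the adjusted F test (0.14). An edgeR fit with replicate number as a block lost it too (adjusted p = 0.0811). miR169d,e,f-5p,g-5p was at 60.0, 49.8 and 49.6 CPM in Cd+, below the 65.0 to 80.0 CPM of C (-0.41, SE 0.15, adjusted p = 0.128).

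Copper and sulphur supply gave no called member by edgeR. For Cu- none of 5 passed (10.5% of 162 sequences did, unadjusted 0, DESeq2 0), for Cu+ none of 5 (1.24% of 161, unadjusted 0, DESeq2 0) and for S- none of 5 (0% of 161, unadjusted 2, DESeq2 0). Of all sequences, 34 were higher and 16 lower unadjusted in Cu-, 11 and 9 in Cu+, and 3 and 5 in S-. The miR169b arms varied most among the copper-deprived replicates. miR169b-3p was at 203, 36.3 and 113 CPM in Cu- and at 37.4, 43.7 and 29.6 CPM in Cu+, so that Cu- replicates 1 and 3 were above and replicate 2 within the range of Cu+. miR169b-5p,c was at 99.0, 35.6 and 41.6 CPM in the same Cu- libraries. Between Cu- and Cu+ the log2 difference of miR169b-3p was 1.60 (SE 0.53, adjusted p = 0.208), and edgeR called no member (0% of 166 sequences). Unadjusted, this 1 member was higher, while of all 166 sequences 8 were higher and 19 lower. DESeq2 called miR169b-3p (adjusted p = 0.0323), as did edgeR without Cu- replicate 2 (2.11, adjusted p = 0.0184).

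Under S- the 2 members with an unadjusted p under 0.05 were miR169b-5p,c (25.8, 34.5 and 37.0 CPM against 43.5 to 59.0 CPM in C, log2 change -0.61, SE 0.19, adjusted p = 0.629) and miR169a-5p (49.9, 47.7 and 51.3 CPM, -0.40, SE 0.14, adjusted p = 0.629). The 5 members had a log2 change below 0 in Cu+, Cd+ and S- alike, with medians of -0.32, -0.36 and -0.40, where all sequences tested had medians of -0.01, -0.02 and 0.01. In Cd+ miR169b-3p was within its standard error of 0. These comparisons share the 3 C libraries, and their common sign is not repeated evidence.

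Beside other families the behaviour of miR169 under salt stood as follows. Under NaCl+ 14 of 43 sequences of other conserved families that target transcription factors (miR156, miR159, miR160, miR164, miR166, miR172, miR396 and others) rose and 7 fell, with a median log2 change of 0.20. Of 13 sequences of families known from phosphate starvation (miR395, miR398, miR399, miR778, miR827 and miR2111) 7 rose and none fell (median 1.13). This list mixes families known to rise in that starvation with miR395 and miR398, which are known to fall, so its median pools both. The miR169 members had a median of -1.37, and all 156 sequences one of 0.13, with 20.5% called higher and 12.8% lower. In D20 the transcription factor families had 2 of 41 higher and 9 lower (median -0.26), the starvation families 3 of 9 higher (median 1.42), and miR169 1 of 5 higher (median -0.47). All 167 sequences had a median of -0.11 there, with 8.98% called higher and 10.8% lower.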

How the data were processed

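The deposited counts are reads per mature miRNA sequence, made by the authors without normalization: reads under 17 nt were removed and the rest matched to miRBase 21, with a trimmed second attempt. The authors also deposited per library read totals, genome-mapped reads (Bowtie 1.0.0, TAIR10), the percent mapped and an RNA integrity score. Their own mean CPM, fold changes and p-values of each stress were not used. Sequences that appear under several names were counted once, and the control columns repeated between sheets were identical. Counts were tested with edgeR 4.0.16 (R 4.3.3; TMM, filterByExpr with a minimum count of 10, quasi-likelihood F test, Benjamini-Hochberg over all sequences of the comparison, call under 0.05), each stress with its own control. The test was tried on simulated counts first. DESeq2 1.42.0, a one-way F test on CPM (the test of the study), 3 other scalings, 2 other filters, a joint fit, a replicate block, summing the guides and leaving out each replicate were alternatives. CPM is reads over total miRNA reads. Shares and ratios were compared by exact permutation. Members and lists were chosen with earlier results of these data known. All members are named, and other sequences by their 2 highest correlations with a member. Single fold changes below their standard error were not followed further, except miR169d,e,f-5p,g-5p under NaCl+. Same-numbered replicates deviated together in every pair for H6 and H0 (r = 0.33, 0.71 and 0.58) and for Cu+ and C (0.25, 0.32 and 0.20), and in no other comparison, and the block changed no call in these 2. Intervals cover counting error only. Positions come from exact matches to TAIR10.1 with its RefSeq annotation.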

Additional observations from a re-analysis of the deposited data

Results flagged for a closer look

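The response of 2 of 5 members tested differed between salinity and severe drought by a test of the difference itself. In that test 10.2% of 177 sequences were called and 5.08% as lower. Organ, age and growth system differ between the 2 stresses and cannot be told apart from the stress. For miR169b-5p,c the change under NaCl+ minus that in D20 was -3.64 on the log2 scale (edgeR adjusted p = 0.000108). It was lower in all 3 NaCl+ libraries than in all 3 C libraries, and in D20 all 3 libraries lay below all 3 controls, by a small margin (at most 4.11 against at least 4.14 CPM). For miR169b-3p the difference was -2.70 (edgeR adjusted p = 0.016), with 3 of 3 NaCl+ libraries below every C library and overlapping groups in D20. That call was lost without D20 replicate 2 (adjusted p = 0.0555), and the C20 and D20 libraries held only 6 to 23 reads of miR169b-3p each.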

How the results depend on the processing

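The counts of called members changed as follows. The share of all sequences called under each alternative is not given here. With genome-mapped scaling 5 members were called under NaCl+, 0 under Cd+ and 5 in the difference between NaCl+ and D20. With that scaling the median of all sequences moved by -1.46 under NaCl+ and by -1.43 in this difference. The replicate block left 0 called in D20 and 0 under Cd+, and changed no other count. Same-numbered replicates had r of -0.04, 0.17 and -0.05 between D20 and C20, and of -0.14, -0.25 and -0.08 between Cd+ and C. The labels do not say whether a number marks a shared batch, and the paper names 3 plant batches for each drought level. Correlations of 3 pairs cannot settle whether the samples are paired. A joint fit gave 1 for H0.5 and 0 for Cd+. The F test, run without a read filter, gave 0 for D20, 1 for NaCl+ and 0 for Cd+ when adjusted. Unadjusted it gave 2 for NaCl+, 1 for Cu+, 2 for Cd+ and 3 for S-. The 1 for Cu+ was miR169a-3p, which passed the read filter in no comparison. It had 1 read in each Cu+ library against 4, 2 and 4 in C. DESeq2 gave 1 for Cu- against Cu+ and 3 for NaCl+ against D20, and no read filter gave 2 for NaCl+ and 3 for NaCl+ against D20. Summing the guides gave 0 for D20, 2 for NaCl+, 0 for Cd+ and 1 for NaCl+ against D20. Leaving out 1 replicate gave 0 to 1 for D30, D20, Cd+ and Cu- against Cu+, 2 to 3 for NaCl+, 1 to 4 for NaCl+ against D20, and 0 for the other 7 comparisons.

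Of 811 values of 49 member changes under the alternatives, 764 kept their direction and side of the threshold, 21 lost a call, 18 gained one and 8 turned direction. The 764 include uncalled changes that stayed uncalled, and 21 of 70 changes were not followed. Calls held in 7 of 16 alternatives for miR169a-5p under Cd+ and in 10 of 16 for miR169d,e,f-5p,g-5p in D20. Under NaCl+ they held in 16, 14 and 13 of 16 for miR169b-5p,c, miR169b-3p and miR169h,i,j,k,l,m,n. In the difference between NaCl+ and D20 the call of miR169b-5p,c held in 20 of 20 and that of miR169b-3p in 19 of 20. Leaving out 1 replicate turned the log2 change of miR169h,i,j,k,l,m,n in D20 (-0.65 to 0.025, above 0 without C20 replicate 3), of miR169b-5p,c in H0.5 (-0.12 to 0.78, below 0 without H0.5 replicate 1) and in Cu- against Cu+ (-0.012 to 0.92, below 0 without Cu- replicate 1), and of miR169d,e,f-5p,g-5p under NaCl+ (-0.29 to 0.15, above 0 without NaCl+ replicate 1). The last was also above 0 with total counts (0.041), in the joint fit (0.056) and in the F test on CPM, adjusted (0.049) or not (0.049). From the lowest, NaCl+ ranked among 13 conditions 8, 1, 10, 2 and 6 by CPM for miR169a-5p, miR169b-5p,c, miR169d,e,f-5p,g-5p, miR169h,i,j,k,l,m,n and miR169b-3p, 1, 1, 1, 1 and 3 per mapped read, and 3, 2, 4, 1 and 5 with TMM library sizes. The cause of these shifts was not tested. miR169b-5p,c had 3 or 4 reads in each NaCl+ library, which limits its precision there.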
